A study of Mus musculus with 12 samples.

Results

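Aqp1, Adcyap1, Nupr1, Fam129a, Itgbl1 and Pdk4 are 6 protein-coding genes of 16425 in a table of gene levels from doxorubicin-treated mouse embryonic fibroblasts (MEFs). The table enters them as AQP1, ADCYAP1, NUPR1, FAM129A, ITGBL1 and PDK4, and they are written here in mouse style. They were picked because each was lower with a guide RNA against Pvt1 than with a control guide in all 3 replicate pairs. That difference chose them, so it is described below without a test. All 6 passed the filter on low levels that left 14440 genes.

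The study asked what follows when p53 can no longer act through its response element in Pvt1, a long noncoding RNA next to the Myc gene. The Pvt1-guide group came from wild-type MEFs infected with a guide RNA, sg10, directed at that element, and the labels call these cells mutant for it. The control-guide group came from wild-type MEFs infected with sgtom, a non-targeting guide. Both groups were treated with 0.5 µM doxorubicin, which damages DNA, for 24 h, and each has 3 libraries numbered 1 to 3. Of the 12 libraries of the series, 6 were untreated and were not analysed here, so an effect of doxorubicin itself could not be measured. The replicates are called biological, but whether equal numbers mark one embryo, culture or day is not given in the sources used here. The share of edited cells, whether they are a pool or clones, and the enzyme used with the guide are not given either.

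These genes belong to different pathways. Aqp1 forms a water channel in the plasma membrane. Adcyap1 encodes the neuropeptide PACAP, which acts through receptors that raise cyclic AMP (cAMP). Nupr1 is a small nuclear protein that many kinds of cell stress induce, and Fam129a, also named Niban1, is a cytoplasmic protein induced when the endoplasmic reticulum is stressed. Itgbl1 is a secreted protein with repeats like those of integrin beta chains. Pdk4 is a mitochondrial kinase that inhibits the pyruvate dehydrogenase complex and so limits the entry of glucose carbon into the citric acid cycle.

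RefSeq (GRCm38.p6) gave the start site of every one of the 6 genes, with Fam129a filed as Niban1 and 2 starts for Adcyap1. The 250 bases before each start were searched on both strands for CACGTG (an E-box, which Myc can bind), TGACGT (part of the cAMP response element), TGATGCAA (a composite site of the Atf4 type), TGTTTAC (a Foxo site) and the p53 response element. Matches were found in Nupr1 and Adcyap1, so these stretches are shown, with matches in capitals. Nupr1 lies on the minus strand at chr7:126625471-126625720. Its CACGTG began 225 bases before the start, and TTGCATCA, which is TGATGCAA on the other strand, began 110 bases before it.
Nupr1: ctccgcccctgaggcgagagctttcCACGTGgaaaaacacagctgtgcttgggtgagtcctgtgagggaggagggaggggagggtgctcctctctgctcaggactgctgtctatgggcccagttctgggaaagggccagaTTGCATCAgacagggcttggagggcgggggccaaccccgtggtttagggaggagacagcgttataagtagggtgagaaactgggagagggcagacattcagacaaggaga
The stretch before the first Adcyap1 start lies on the plus strand at chr17:93198767-93199016. Its TGACGT began 91 bases before that start and 242 bases before the second.
Adcyap1: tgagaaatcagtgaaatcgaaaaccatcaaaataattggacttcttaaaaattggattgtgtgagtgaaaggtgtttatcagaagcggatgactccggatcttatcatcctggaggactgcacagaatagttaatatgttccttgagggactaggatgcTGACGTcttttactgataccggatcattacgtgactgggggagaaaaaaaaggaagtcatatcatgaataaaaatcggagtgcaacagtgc
Among 32851 mouse start sites searched in the same way, 7.15% held CACGTG, 7.51% TGACGT, 0.895% TGATGCAA, 3.65% TGTTTAC and 0.0731% a p53 response element. No match to any of these motifs was present in the windows of Aqp1, Fam129a, Itgbl1 or Pdk4, and no p53 element in any of the 6. A match describes letters only and was not a measure of binding.

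Recovered reads in genes came to 59572326, 50091418 and 66132317 in the Pvt1-guide libraries and 52445969, 53078389 and 61550435 in the control-guide libraries, for replicates 1 to 3. Levels are given in CPM, the reads of a gene divided by a library size that the authors had scaled. Pvt1, the targeted gene, was lower where the labels place its guide. It had 8.04, 5.93 and 5.40 CPM with the Pvt1 guide, against 16.4, 11.7 and 12.1 CPM with the control guide. Myc, its neighbour, had 43.5, 48.6 and 53.8 CPM with the Pvt1 guide, against 28.7, 27.0 and 35.6 CPM with the control guide. The summed level of 10 fibroblast markers lay between 37018 and 38124 CPM in Pvt1-guide libraries and between 38244 and 38811 CPM in control-guide libraries. Fn1 dominated this sum, with means of 20550 CPM with the Pvt1 guide and 21483 CPM with the control guide. On the log2 scale 6 of the 10 markers were lower with the Pvt1 guide, beside 50.3% of all genes tested, and 4 were higher. Other cell types left weaker signals. Summed macrophage markers had 319, 98.0 and 125 CPM with the Pvt1 guide and 206, 104 and 123 CPM with the control guide. Endothelial markers summed to 86.2 to 124 CPM with the Pvt1 guide and 102 to 123 CPM with the control guide, with no entry for Cdh5, Tie1 or Cldn5. Each library is bulk RNA, so fewer cells that express a gene and less of its RNA per cell cannot be told apart.

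Aqp1, the water channel, had the highest mean CPM of the 6 with either guide. It lies on chromosome 6 from 55336432 to 55348555 (mm10, plus strand, ENSMUSG00000004655.5). Its level was 69.0, 86.0 and 214 CPM in Pvt1-guide libraries 1 to 3. In control-guide libraries 1 to 3 it was 86.9, 107 and 271 CPM. Replicate 3 stood far above replicates 1 and 2 with both guides, and the groups overlapped. The Pvt1-guide mean was 123 ± 79.6 CPM and the control-guide mean 155 ± 101 CPM (SD, n = 3 each), a ratio of 0.796. Within pairs the ratio was nearly constant, at 0.794, 0.807 and 0.792, although the difference in level was -17.9, -20.6 and -56.4 CPM. The 95% counting intervals of these ratios were 0.762 to 0.826, 0.777 to 0.838 and 0.775 to 0.809, and all 3 share values. Such intervals cover counting error only, and Aqp1 had between 4565 and 18322 reads in a library.

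Adcyap1, the PACAP gene, had the lowest level and the largest relative decline of the 6. It lies on chromosome 17 from 93199017 to 93206537 (mm10, plus strand, ENSMUSG00000024256.7), behind the sequence shown above. Its level was 5.56, 2.90 and 1.37 CPM in Pvt1-guide libraries 1 to 3, against 10.4, 4.59 and 2.41 CPM in control-guide libraries 1 to 3. Replicate 1 was highest and replicate 3 lowest with both guides. The means were 3.28 ± 2.12 CPM with the Pvt1 guide and 5.80 ± 4.12 CPM with the control guide (SD, n = 3 each), a ratio of 0.566. Pair ratios were 0.535, 0.632 and 0.570, with intervals of 0.469 to 0.611, 0.517 to 0.771 and 0.440 to 0.736. These intervals share values but are wide, since libraries held only 100 to 600 reads of this gene. The log2 difference was -0.69 here, on log2(CPM + 0.5), and -0.82 in the authors' deposited table. An added 0.5 CPM shrinks differences at such low levels.

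Nupr1, the stress-induced nuclear protein, lies on chromosome 7 from 126623249 to 126630861 (mm10, minus strand, ENSMUSG00000030717.9), a span that includes longer annotated transcripts than the RefSeq start used above. Its level was 56.2, 85.7 and 76.9 CPM in Pvt1-guide libraries 1 to 3. Control-guide libraries 1 to 3 had 65.5, 94.3 and 93.1 CPM. Replicate 1 was lowest with both guides, and Pvt1-guide replicates 2 and 3 were above control-guide replicate 1, so that the groups overlapped. The means were 72.9 ± 15.2 CPM with the Pvt1 guide and 84.3 ± 16.3 CPM with the control guide (SD, n = 3 each), a ratio of 0.865. Pair ratios were 0.857, 0.909 and 0.826, and the counting intervals of pairs 2 (0.874 to 0.945) and 3 (0.797 to 0.857) did not meet.

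Fam129a, the Niban protein of the stressed endoplasmic reticulum, had a different order of replicates. The gene lies on chromosome 1 from 151571186 to 151721939 (mm10, plus strand, ENSMUSG00000026483.13). Pvt1-guide libraries 1 to 3 held 73.8, 50.0 and 55.7 CPM. Control-guide libraries 1 to 3 held 89.5, 54.8 and 66.5 CPM. Replicate 1 was highest and replicate 2 lowest in both groups, which overlapped. Averages were 59.8 ± 12.5 CPM with the Pvt1 guide and 70.3 ± 17.7 CPM with the control guide (SD, n = 3 each), a ratio of 0.851. Pair ratios were 0.825, 0.912 and 0.837, and the counting intervals of pairs 1 (0.793 to 0.858) and 2 (0.867 to 0.960) did not meet.

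Itgbl1, the secreted integrin-like protein, had the most even decline. The gene covers chromosome 14 from 123659971 to 123975618 (mm10, plus strand, ENSMUSG00000032925.16). Inside it the annotation places a pseudogene on the other strand and a small nucleolar RNA, neither of which has an entry in the table. Its level was 69.0, 37.3 and 34.0 CPM in Pvt1-guide libraries 1 to 3, against 79.4, 42.8 and 38.8 CPM in control-guide libraries 1 to 3. Replicate 1 stood apart, and its Pvt1-guide library was above control-guide libraries 2 and 3. The group means were 46.8 ± 19.3 CPM with the Pvt1 guide and 53.7 ± 22.4 CPM with the control guide (SD, n = 3 each), a ratio of 0.871. Pair ratios were 0.868, 0.872 and 0.877, with intervals of 0.833 to 0.905, 0.822 to 0.924 and 0.830 to 0.927.

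Pdk4, the kinase that inhibits pyruvate dehydrogenase, was lower by about as much. It lies on chromosome 6 from 5483351 to 5496309 (mm10, minus strand, ENSMUSG00000019577.6), far from Aqp1 on that chromosome. Libraries 1 to 3 with the Pvt1 guide had 94.0, 66.1 and 62.8 CPM. Libraries 1 to 3 with the control guide had 111, 79.6 and 67.8 CPM. Replicate 1 was highest and replicate 3 lowest with both guides, and the groups overlapped. Means came to 74.3 ± 17.1 CPM with the Pvt1 guide and 86.1 ± 22.3 CPM with the control guide (SD, n = 3 each), a ratio of 0.863. The pair ratios were 0.848, 0.831 and 0.926, and the counting interval of pair 3 (0.889 to 0.965) met neither that of pair 1 (0.819 to 0.878) nor that of pair 2 (0.796 to 0.868).

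**Figure D1:**
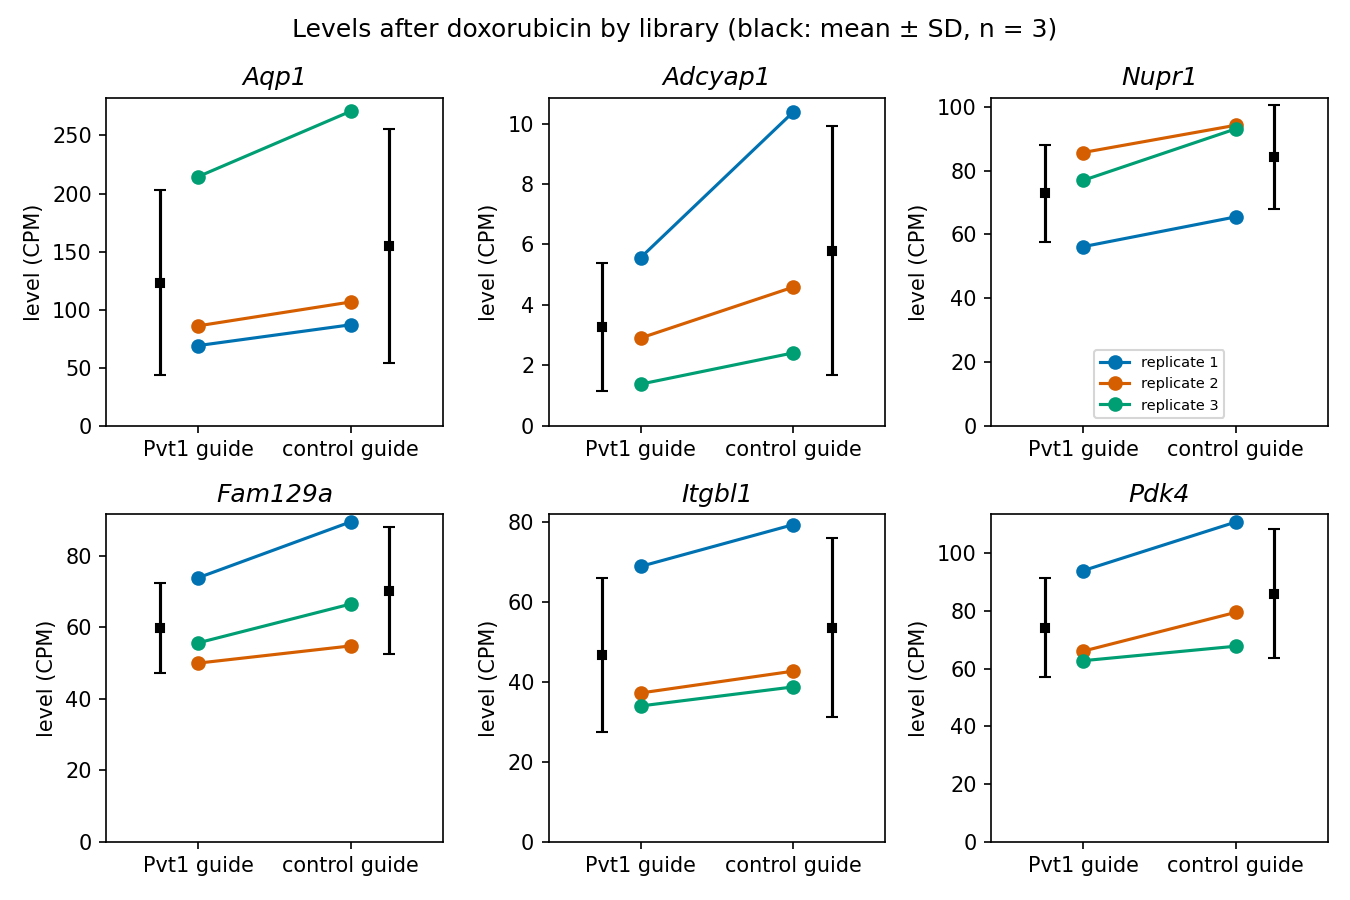
Level in CPM (vertical axis) of each gene in the 3 Pvt1-guide and the 3 control-guide libraries, with lines joining libraries of the same replicate number and black squares with bars for mean ± SD (n = 3). Every line is lower at its Pvt1-guide end, which is how the genes were chosen, and the black bars of the 2 guides overlap in every panel.

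Per kilobase of annotated exon, the mean level with the Pvt1 guide and with the control guide was 46.9 and 58.9 CPM for Aqp1. It was 29.0 and 33.5 CPM for Nupr1, then 21.2 and 24.5 CPM for Pdk4. Itgbl1 followed with 11.1 and 12.7 CPM, Fam129a with 8.11 and 9.52 CPM, and Adcyap1 came last with 0.868 and 1.53 CPM. Over single libraries, Aqp1 spanned 26.3 to 103 CPM per kilobase and overlapped Nupr1 (22.3 to 37.5), which overlapped Pdk4 (17.9 to 31.6). Pdk4 overlapped Itgbl1 (8.05 to 18.8), and Itgbl1 overlapped Fam129a (6.77 to 12.1). Adcyap1, at 0.364 to 2.75 CPM per kilobase, lay below the range of each of the other genes. Exon bases were pooled over all annotated transcripts, 1 for Aqp1 and 6 for Nupr1. The order could therefore differ on the transcripts that these cells make, which were not measured.

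Being lower in all 3 pairs was not rare in these libraries. All 6 genes met it, by the rule, and so did 14.4% of the genes tested (2074 of 14440), while 2081 genes were higher in all 3 pairs. The groups did not overlap for 0 of the 6 genes, and Pvt1-guide levels lay wholly below control-guide levels for 1.47% of all genes and wholly above for 2.15%. The smallest decline within a pair was that of Pdk4 in pair 3, a log2 difference of -0.11, and next came Fam129a in pair 2 with -0.13. Just outside the rule, the adrenergic receptor gene Adrb3 had log2 differences of -0.33, -0.33 and 0.01, and Ndrg2 had -0.21, -0.41 and 0.01. Genes lower in all 3 pairs by a mean at least as large as that of Itgbl1, -0.19, numbered 232 (1.61%). Among the 10399 genes with a mean of at least 5 CPM, 48 (0.462%) met that mark. Adcyap1, with a mean of 4.54 CPM, is not among the 10399. The mark was set by the chosen genes, so these shares do not measure how unusual the 6 are.

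The guide effect used for the rule was also fitted over all genes with limma. Without the replicate pairs in the fit, 0% of genes passed at an adjusted p of 0.05 and 0 of the 6 did, while 50 genes had an unadjusted p under 0.05 and edgeR on recovered reads also called 0. With them as a block, 0.0346% passed (5 genes), of which 2, Aqp1 and Adcyap1, are among the 6. The rule used this contrast, so nothing is read from these counts. The 2 genes are given here only for their values.

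**Figure D2:**
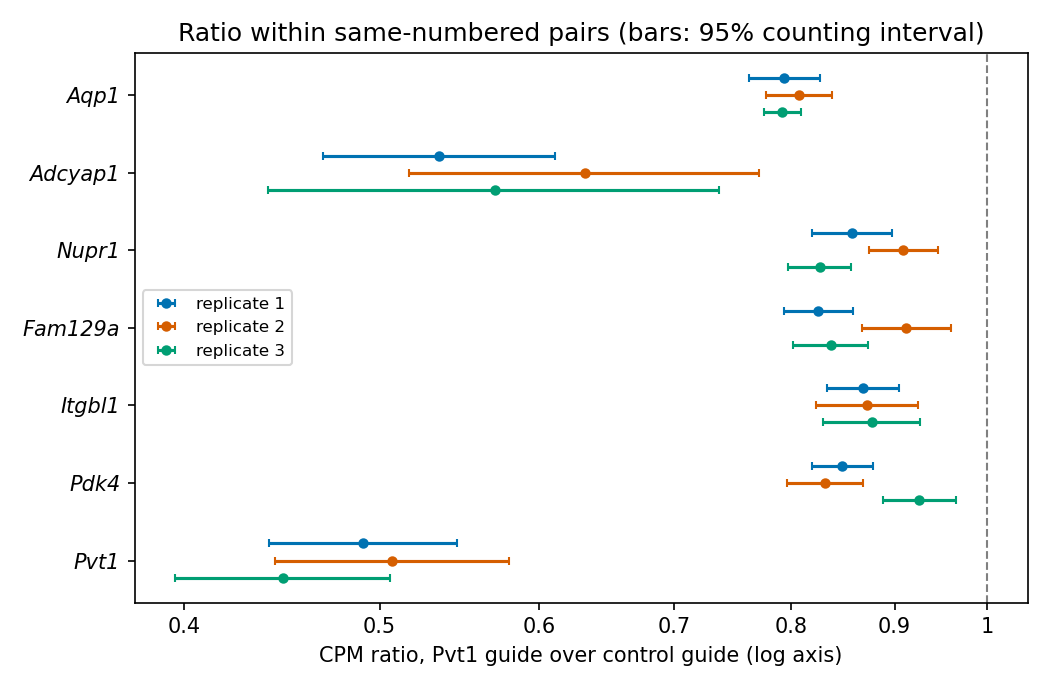
Ratio of CPM, Pvt1 guide over control guide, in each same-numbered pair (horizontal axis, log scale), with bars for the 95% counting interval and Pvt1 below for scale. All ratios of the 6 genes are below 1, those of Adcyap1 lie between 0.535 and 0.632 and those of the other 5 between 0.792 and 0.926.

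How evenly the pairs declined differed among the 6. The SD of the 3 pair log2 differences was 0.00786 for Itgbl1 and 0.0150 for Aqp1, against a median of 0.0900 over all genes tested. It was 0.0691 for Nupr1, 0.0780 for Fam129a and 0.0826 for Pdk4. For Adcyap1 it was 0.140, above that median. The rule asked these same pairs to agree in direction, and the median includes genes with far fewer reads. No trait of the 6 genes is therefore read from the comparison. The 3 counting intervals shared values for 3 genes, Aqp1, Adcyap1 and Itgbl1, and did not for the other 3. Whether the pairs of a gene differ beyond biological spread cannot be read from these intervals.

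The rule did not use the differences between replicate numbers, which were far larger than those between guides. Replicate number held 95% of the variance of Aqp1 on the log2 scale, and the guide held 5.0%. For Itgbl1 the shares were 95.5% and 4.46%. They were 86.6% and 12% for Pdk4, 83.8% and 15.1% for Nupr1, 83.8% and 14.9% for Fam129a, and 81.7% and 17.8% for Adcyap1. Medians over all genes tested were 80.5% for replicate number and 3.94% for guide.

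Levels averaged over both guides showed where each gene was high. Aqp1 had 78.0, 96.3 and 243 CPM in replicates 1 to 3, so replicate 3 was 3.11 times replicate 1. Adcyap1 ran the other way with 7.97, 3.75 and 1.89 CPM, and replicate 1 was 4.21 times replicate 3. Itgbl1 had 74.2, 40.0 and 36.4 CPM (highest over lowest 2.04), Pdk4 102, 72.8 and 65.3 CPM (1.57) and Fam129a 81.7, 52.4 and 61.1 CPM (1.56). Nupr1, with 60.8, 90.0 and 85.0 CPM (1.48), was lowest where these 4 were highest. Thus 4 of the 6 genes were highest in replicate 1, as were 40.2% of all genes tested. For all 6, the order of the replicates was the same with either guide.

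By limma's F test across all genes with replicate number as the only term, 47.3% of genes differed between replicate numbers at an adjusted p of 0.05. All 6 did, a share to be read against that background. Adjusted p was 3.79e-05 for Itgbl1, 0.00647 for Pdk4, 0.00987 for Aqp1, 0.0109 for Nupr1, 0.0125 for Fam129a and 0.0486 for Adcyap1. Without replicate 1 the adjusted p of this test was 0.572 for Nupr1, 0.272 for Itgbl1, 0.266 for Pdk4 and 0.114 for Fam129a. Fam129a and Nupr1 also missed the threshold without replicate 2 (0.106 and 0.0528). Of the 3 numbers, only leaving out replicate 3 made Aqp1 miss it, at 0.290. Adcyap1 missed the threshold without replicate 1, 2 or 3, at 0.0634, 0.0649 and 0.170. Leaving out a number also leaves fewer degrees of freedom, so a missed threshold alone does not show what a difference rests on. The macrophage marker sums given above were also highest in replicate 1, as were those of adipocyte markers. The adipocyte sums were 49.7, 19.0 and 24.2 CPM with the Pvt1 guide and 48.6, 19.7 and 23.3 CPM with the control guide. Only 2 of the 8 adipocyte markers were tested, Fabp4 and Pparg, and Plin1, Cidec, Lep, Cfd and Retn had no entry. The part of either marker sum in the levels of the 4 genes highest in replicate 1 was not tested.

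**Figure D3:**
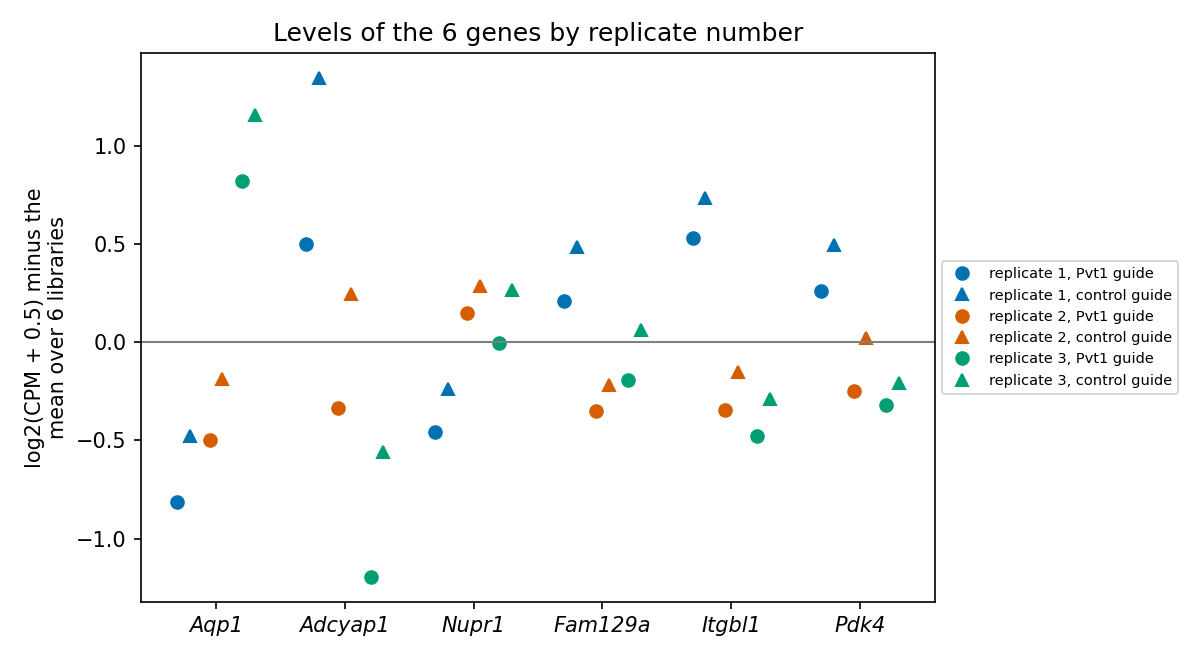
Level of each gene in each library, as log2(CPM + 0.5) minus its mean over the 6 libraries (vertical axis), with circles for the Pvt1 guide, triangles for the control guide and colours for replicate number. Colours separate more than shapes do, with replicate 3 highest for Aqp1, replicate 2 for Nupr1 and replicate 1 for the other 4 genes.

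The 6 genes did not share one pattern. Over the 6 libraries, Pearson's r of log2 levels was 0.979 between Itgbl1 and Pdk4, 0.962 between Adcyap1 and Pdk4 and 0.916 between Adcyap1 and Itgbl1. Fam129a was close to Itgbl1 (0.882) and Pdk4 (0.845). Aqp1 ran against Adcyap1 (-0.720) and Nupr1 against Itgbl1 (-0.782), while Aqp1 and Nupr1 had 0.560. These values describe 6 libraries that share guides and replicate numbers. They carry no test.

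The tested genes most like each of the 6 over these libraries, among those with a mean of at least 5 CPM, followed it at r of 0.985 or more. For Aqp1 they were Id4 (0.997), Pdia6 (0.996) and Ptger4 (0.993), and for Adcyap1 C87436 (0.988), Arl13b (0.988) and Mapre1 (0.985). Nupr1 had Pfkfb4 (0.998), Faf1 (0.994) and C1galt1 (0.994). Fam129a had Jdp2 (0.996), Cib2 (0.995) and Golim4 (0.994). Itgbl1 had Ppt1 (0.999), Magt1 (0.998) and Aplp1 (0.998), and Pdk4 had Tbkbp1 (0.999), Mbd2 (0.997) and Ddit3 (0.997). These values too rest on 6 libraries that share guides and replicate numbers, and they carry no test.

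Lists of related genes put the 6 beside the rest of their pathways. Of 146 such genes, 127 were tested. None passed for the guide effect in limma with an adjusted p of 0.05, with or without the block, where 0% and 0.0346% of all genes did. An unadjusted p under 0.05 was found for 0 of them without the block and for 8 (6.3%) with it, against 965 (6.68%) of all genes tested, and edgeR on recovered reads called 0. Of the 127, 86 (67.7%) had a log2 difference below 0, against 50.3% of all genes tested, and 25 (19.7%) were lower in all 3 pairs, beside 14.4% of all genes. The values below therefore describe levels and are not changes that passed a test. The median log2 difference over all genes tested was 0.00.

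The other water channels were few in these cells. Of 11 aquaporins listed, 3 were tested and all 3 had differences below 0, with a median of -0.08. Aqp5 had 31.4 ± 3.0 CPM with the Pvt1 guide and 38.2 ± 8.42 CPM with the control guide (SD, n = 3 each). Its pair differences of -0.66, -0.04 and -0.07 show that pair 1 carried most of this. Aqp11 averaged 1.78 CPM with the Pvt1 guide and 1.93 CPM with the control guide, and Aqp3 0.435 and 0.471 CPM.

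Genes that make or sense PACAP gave 5 of 6 differences below 0, with a median of -0.10. Adcyap1r1, its selective receptor, averaged 1.81 ± 0.257 CPM with the Pvt1 guide and 2.06 ± 0.489 CPM with the control guide and was lower in all 3 pairs. Vipr1, a receptor shared with the peptide VIP, averaged 2.97 ± 0.630 CPM with the Pvt1 guide and 2.69 ± 0.699 CPM with the control guide and was higher in all 3. The peptide-processing enzymes Cpe and Pam were abundant, at 1013 and 384 CPM with the Pvt1 guide, against 1063 and 405 CPM with the control guide. Thus ligand and receptor were both measured at low levels, and the receptor genes did not share a direction.

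Further along this route, 17 of 26 cAMP signalling genes were below 0 with a median of -0.03. In all 3 pairs 8 were lower and 3 higher, where 14.4% of all genes were lower and 14.4% higher. Gnas, the stimulatory G protein, averaged 1347 ± 16.3 CPM with the Pvt1 guide and 1375 ± 18.4 CPM with the control guide. The protein kinase A subunit genes Prkar1a and Prkaca averaged 517 and 101 CPM with the Pvt1 guide and 529.7 and 105 CPM with the control guide. Of 12 genes known to respond to cAMP, 10 were below 0 with a median of -0.02, and 2 were lower and 0 higher in all 3 pairs. Bdnf, a growth factor among them, averaged 101 ± 8.81 CPM with the Pvt1 guide and 113 ± 14.1 CPM with the control guide and was lower in all 3 pairs. Dusp1 and Nr4a1 averaged 123 and 66.8 CPM with the Pvt1 guide and 123 and 68.3 CPM with the control guide.

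Genes that accompany Nupr1 and Fam129a in the stress response of the transcription factor Atf4 split evenly. Of 18, 10 were below 0 with a median of -0.01, and 2 were lower and 3 higher in all 3 pairs. Atf4 itself averaged 126 ± 6.63 CPM with the Pvt1 guide and 126 ± 4.81 CPM with the control guide (SD, n = 3 each). Sesn2, a stress-induced inhibitor of growth signalling, averaged 152 CPM with either guide. Phgdh, the first enzyme of serine synthesis, averaged 292 ± 111 CPM with the Pvt1 guide and 281 ± 91.1 CPM with the control guide. Of the Niban relatives of Fam129a, 1 was below 0 and 1 above. Fam129b averaged 689 ± 84.1 CPM with the Pvt1 guide and 709 ± 83.3 CPM with the control guide. Fam129c averaged 3.98 ± 0.598 CPM with the Pvt1 guide and 3.28 ± 0.227 CPM with the control guide and was higher in all 3 pairs.

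Integrin beta chains, which Itgbl1 resembles, gave 7 of 8 differences below 0, with a median of -0.06. Only 1 was lower in all 3 pairs, and 0 were higher. Itgb1, the common partner of many alpha chains, averaged 2377 ± 199 CPM with the Pvt1 guide and 2479 ± 336 CPM with the control guide. Itgb5 averaged 434 CPM with the Pvt1 guide and 454 CPM with the control guide, and Itgb4 43.6 and 45.4 CPM.

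Around Pdk4, the pyruvate dehydrogenase complex and its regulators gave 10 of 13 differences below 0, with a median of -0.02. In all 3 pairs 0 were higher and 4 lower. Those 4 were the subunit genes Dlat and Dld and the phosphatase genes Pdp1 and Pdp2. Pdha1, another subunit gene, averaged 162 ± 2.41 CPM with the Pvt1 guide and 163 ± 6.08 CPM with the control guide. Pdhb averaged 89.6 CPM with either guide, and Dld 85.1 CPM with the Pvt1 guide and 87.7 CPM with the control guide. Dlat averaged 63.5 CPM with the Pvt1 guide and 64.5 CPM with the control guide. The sister kinases Pdk1, Pdk2 and Pdk3 had log2 differences of 0.01, 0.00 and -0.03. Pdp1 and Pdp2, the phosphatases that oppose the kinases, had -0.13 and -0.14. These phosphatases, Dlat, Pdk1 to Pdk3 and Adcyap1r1 above were chosen for mention after their values were seen.

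Lists for pathways known to induce Pdk4 differed in direction, and their part in the Pdk4 difference was not tested. Of 19 genes of fatty acid use, 9 were below 0 with a median of 0.01, and 2 were lower and 5 higher in all 3 pairs. Plin2, Acadvl and Hadha averaged 461, 257 and 146 CPM with the Pvt1 guide, against 465, 264 and 144 CPM with the control guide. Nuclear receptors and Foxo factors that act on Pdk4 gave 4 of 8 below 0, with 1 lower and 3 higher in all 3 pairs. Rxra, Foxo3 and Nr3c1, the glucocorticoid receptor, averaged 135, 111 and 104 CPM with the Pvt1 guide, against 136, 106 and 108 CPM with the control guide. Glucocorticoid and Foxo response genes gave 10 of 12 below 0, with a median of -0.04, and 3 were lower and 0 higher in all 3 pairs. Of these, Sgk1, Sesn3 and Cited2 averaged 269.7, 108 and 103 CPM with the Pvt1 guide, against 278, 107 and 109 CPM with the control guide.

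**Figure D4:**
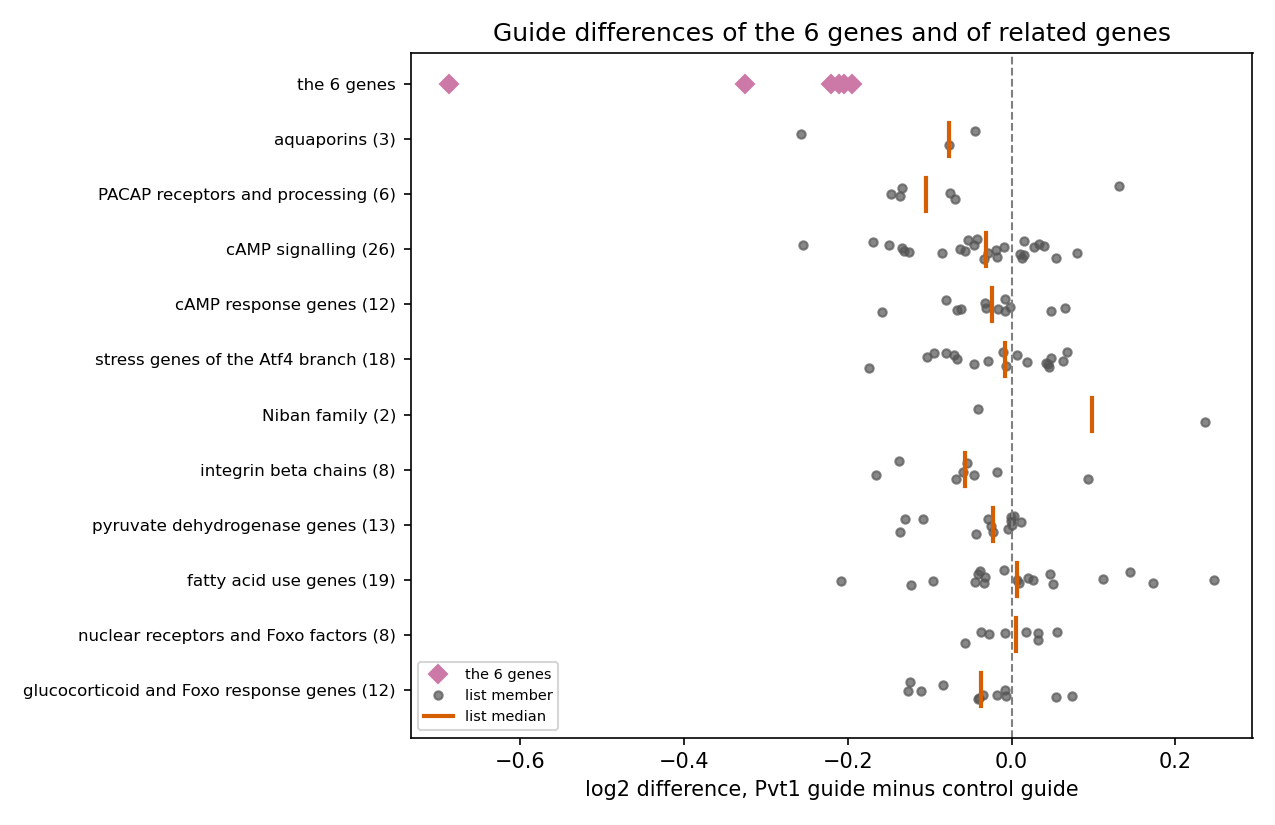
Log2 difference, Pvt1 guide minus control guide (horizontal axis), of the 6 genes and of each tested gene in 11 related lists, with the number tested in brackets and an orange bar at each list's median. The 6 genes, chosen on this difference, lie between -0.69 and -0.19, and list medians lie between -0.10 and 0.10.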

How the data were processed

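Strand-specific libraries were made from polyadenylated RNA with a TruSeq kit, per the labels' protocols. The submitters' processing notes name the build mm10, edgeR 3.22.3, HTSeq 0.6.1, TopHat2 2.0.14 and StringTie 1.2.4 without role, order or strand setting. The authors deposited CPM for each library, which the file headers credit to edgeR. Their log2 fold change and log2 CPM, and the p-value and false discovery rate, were deposited beside these, and of these only the log2 fold change is quoted here. The 6 columns of pseudo-counts were not used.

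The table's 16427 entries include 2 that name no gene. Ambiguous reads took 0.926% to 1.58% of the CPM in Pvt1-guide libraries and 0.543% to 1.36% in control-guide libraries. Reads in no feature took 8.41% to 8.94% with the Pvt1 guide and 8.06% to 8.33% with the control guide. Both were removed and CPM were not rescaled. Symbols in the file are in capitals and are written here in mouse style.

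limma 3.58.1 (R 4.3.3, trend and robust) was run on log2(CPM + 0.5) for genes that reached 0.5 CPM in 3 or more libraries, with Benjamini-Hochberg adjustment over 14440 genes and a threshold of 0.05. One fit had guide as its term, one guide with replicate number as a block, and one replicate number alone, which left 3 residual degrees of freedom. The fits were also run on simulated reads. Those for the guide held no difference between replicate numbers, unlike these libraries, so they do not show how many real changes the fits would find here. Deviations from group means correlated at 0.869, 0.739 and 0.817 between libraries of equal number and at most at 0.203 otherwise, across genes, so the numbers were taken to pair libraries. The 3 deviations of a gene within a group sum to 0, so the low values otherwise follow in part from the high ones. All CPM came out as whole reads within 0.01 after division by the step of 1 read. In 2 libraries no gene had exactly 1 read, and the step came from differences between values. edgeR 4.0.16 on these reads called 0 genes for guide. Counting intervals of pair ratios are exact (Clopper-Pearson, 95%).

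Positions come from GENCODE M21 and start sites from RefSeq. The 6 genes and all lists were chosen with earlier results of these data known. The text names the 6 genes, Pvt1, Myc, the 3 most abundant tested genes of each related list, any list member past the threshold with or without the block, the 3 genes most like each of the 6, and the 2 nearest misses of the rule. Outside this scheme it names Adcyap1r1, Dlat, Pdp1, Pdp2 and Pdk1 to Pdk3, chosen after their values were seen. It also names Atf5 and Plin4, which passed only with the block and without replicate 2. Of the marker lists the sums are given, with means only for Fn1, Des and Ckm, and names for Fabp4, Pparg and markers without an entry. Marker lists also covered mesothelial, neural, muscle, cartilage and erythroid cells.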

Additional observations from a re-analysis of the deposited data

How the results depend on the processing

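For the guide, the count of genes past the threshold was 0 without pairs and in 14 alternatives, while 50 genes had an unadjusted p under 0.05. It was 5 with the replicate block, and 15, 156 and 8 with the block and without replicate number 1, 2 or 3. Of the related genes, 0 passed except with the block without replicate 2, where 2 did (Atf5 and Plin4). The block was used because the numbers were taken to pair the libraries, from their correlation, as the labels state no pairing. With every replicate number present once per guide, the block cannot change a log2 difference, so those of the 6 genes stayed the same by construction.

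Leaving out 1 library breaks a pair, and the log2 difference then turned to 0.17 for Aqp1 without control-guide replicate 3 and to 0.12 for Itgbl1 without control-guide replicate 1. The range over all alternatives was -0.82 to 0.17 for Aqp1 and -0.51 to 0.12 for Itgbl1. It was -1.14 to -0.19 for Adcyap1, -0.38 to -0.03 for Nupr1 and Fam129a, and -0.38 to -0.01 for Pdk4. Adcyap1 has no value among genes with a mean of at least 5 CPM.

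For replicate number, 2421 genes passed without replicate 1, and 4684 to 7055 in the other 17 alternatives (5043 to 6711 with 1 library left out). Adcyap1 missed the threshold in 11 of 17 alternatives, with adjusted p from 9.82e-07 to 0.170 over them. Nupr1 and Fam129a each missed it in 4 of 18, and Aqp1, Itgbl1 and Pdk4 in 1. The fits of replicate number without each number were added after seeing the data. So was the count of the 6 genes lower in 3 pairs after rescaling by quantiles, medians or reads in genes, which stayed 6. That count repeats the rule on the genes it chose, so nothing is read from it. With 3 libraries a guide, few degrees of freedom limit every call.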

Other observations

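Of the other cell types listed, neural and glial markers summed to 108, 109.6 and 112 CPM with the Pvt1 guide and 129, 118 and 105 CPM with the control guide. Mesothelial markers summed to 129 to 156 CPM with the Pvt1 guide and 122 to 160.5 CPM with the control guide. Cartilage markers had 102, 80.02 and 78.2 CPM with the Pvt1 guide and 161, 65.1 and 80.5 CPM with the control guide, with replicate 1 highest in both groups. Skeletal muscle markers summed to 29.6 to 45.2 CPM with the Pvt1 guide and 29.8 to 49.3 CPM with the control guide. Only 2 of these 9 were tested, and Myod1, Myog, Actn2 and Myf5 had no entry. Des averaged 35.5 CPM with the Pvt1 guide and 37.3 CPM with the control guide, and Ckm 0.345 and 0.432 CPM. The muscle sum therefore rests almost wholly on Des. Among the other lists here, Rbfox3, Snap25, Sox10, Krt8, Matn1 and Col9a1 also had no entry, and none of 7 erythroid markers had an entry in the table.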
